A study of Arabidopsis thaliana with 12 samples.

Results

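The genotype by ATP interaction in Arabidopsis thaliana roots is the difference between 2 ATP responses, that of the dorn1-1 mutant (ATP minus buffer) less that of the wild type (ATP minus buffer). It was computed from all 12 arrays of the series, 3 in each of 4 groups, for 22746 of the 22810 probe sets, the 64 control probe sets being left out. All values are on the log2 scale. A value below 0, called a lower interaction here, means that the ATP change of dorn1-1 lay below that of the wild type, and a value above 0, a higher interaction, that it lay above. Every probe set was included whatever its values, and 13355 genes could be named, each by 1 probe set.

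The wild type was the Col-0 ecotype carrying aequorin, a reporter of calcium in the cell. The mutant, dorn1-1, carries a chemically induced point mutation in the gene for lectin receptor kinase I.9 according to the labels, and that gene was not analysed here. Seedlings of both genotypes were 5 days old, and each sample was a pool of 120 seedlings kept overnight in the dark in the same buffer, 2 mM MES with 10 mM CaCl2, in its own well. Roots were then harvested 30 min after ATP or MES buffer was given. The titles state the ATP dose as 100 mM and the protocol as 100 µM, and the dose is not settled here.

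ATP released from wounded or stressed plant cells acts as a signal outside the cell. It binds a lectin-domain receptor kinase at the plasma membrane, cytosolic calcium rises within seconds, and calmodulin-like proteins, kinases and transcription factors pass the signal on to genes of defence, wounding and cell wall growth. A transcript whose ATP response needs that receptor would change in the wild type and stay near its buffer level in the mutant, which gives an interaction opposite in sign to the wild-type change.

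The arrays had medians of 6.07 to 6.17, and replicates of a group correlated at 0.9684 or above. Root hair expansins were measured in every group (EXPA7 at 6.28 to 6.78 and EXPA18 at 6.09 to 6.99, group means). Transcripts of green tissue were present too: the mean of 3 photosynthesis genes (RCA, LHCB4.1 and PRK) was 10.30 ± 0.47 in Col-0 MES and 11.64 ± 0.49 in Col-0 ATP (SD, n = 3 each), and it ran from 10.63 to 11.27 in dorn1-1 ATP, an interaction of -0.82. In dorn1-1 MES it ran from 9.09 in replicate 2 to 11.89 in replicate 1 (10.47 ± 1.40, SD, n = 3), and that group also held the lowest correlation between replicates. The difference between 3' and 5' control probe sets had interactions of 0.11 for GAPDH and -0.05 for actin. Group means of that difference ran from -0.32 to -0.08 for GAPDH. For actin they were 2.88 in Col-0 MES, 2.81 in Col-0 ATP, 3.08 in dorn1-1 MES and 2.95 in dorn1-1 ATP. In roots taken whole, fewer cells of a type and less RNA per cell cannot be told apart.

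Only 2 probe sets passed the interaction test by limma at an adjusted p of 0.05, 0.00879% of those tested, and in both the dorn1-1 change lay below the Col-0 change. They represent AT5G52760, which encodes a protein with a heavy-metal-associated domain, and AT3G02840, which encodes an armadillo-repeat protein. At an unadjusted p of 0.05 there were 1585 probe sets, 610 lower (2.68%) and 975 higher (4.29%). Among the 13355 named genes the corresponding shares were 2.38% lower, or 318 genes, and 4.13% higher, or 552 genes. The split between the directions depended on the scaling. With cyclic loess scaling it was 822 lower and 694 higher, so that the lower share was 54.2% in place of 38.5%. Without dorn1-1 MES replicate 1 it was 573 lower and 627 higher, a lower share of 47.8%.

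AT5G52760 stood at 4.30, 4.0 and 4.29 in Col-0 MES, at 5.95, 6.14 and 6.02 in Col-0 ATP, at 5.92, 5.55 and 5.74 in dorn1-1 MES and at 5.35, 5.31 and 5.18 in dorn1-1 ATP. The treatments did not overlap in either genotype, nor did the genotypes in either treatment, and the dorn1-1 MES arrays lay just under the Col-0 ATP arrays. The Col-0 change was 1.84 (SE 0.13, limma adjusted p = 6.83e-05), and the dorn1-1 change was -0.45 (95% interval -0.73 to -0.18), which did not pass in the dorn1-1 response. The interaction was -2.30 (SE 0.18, 95% interval -2.68 to -1.91, limma adjusted p = 0.000556). It combined a gap of 1.54 between the genotypes in MES (limma adjusted p = 0.000494) with a gap of -0.75 in ATP (limma adjusted p = 0.00811). The gap in MES was thus the larger part. The interaction passed in all 12 fits that left out 1 array.

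AT3G02840 showed another arrangement. It stood at 5.70, 5.76 and 5.75 in Col-0 MES and at 5.70, 5.72 and 5.74 in dorn1-1 MES, so the genotypes overlapped in buffer (gap -0.02, 95% interval -0.29 to 0.26). In ATP the Col-0 arrays reached 7.71, 7.97 and 7.81, and the dorn1-1 arrays 6.44, 5.96 and 6.36. Each ATP group lay above its own buffer group, and the Col-0 ATP arrays lay above those of dorn1-1. The Col-0 change was 2.09 (4.27-fold, limma adjusted p = 3.94e-05) and the dorn1-1 change 0.53 (1.45-fold, 95% interval 0.26 to 0.81). The interaction was -1.56 (SE 0.18, 95% interval -1.95 to -1.17, limma adjusted p = 0.0215). This call held in 3 of the 12 fits that left out 1 array, those without dorn1-1 MES replicate 1, dorn1-1 ATP replicate 1 or dorn1-1 ATP replicate 2. Without any of the other 9 arrays the value stayed between -1.62 and -1.49, but the limma adjusted p lay between 0.0502 and 0.118. The call was also lost with the replicate number as a block in the model.

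**Figure D1:**
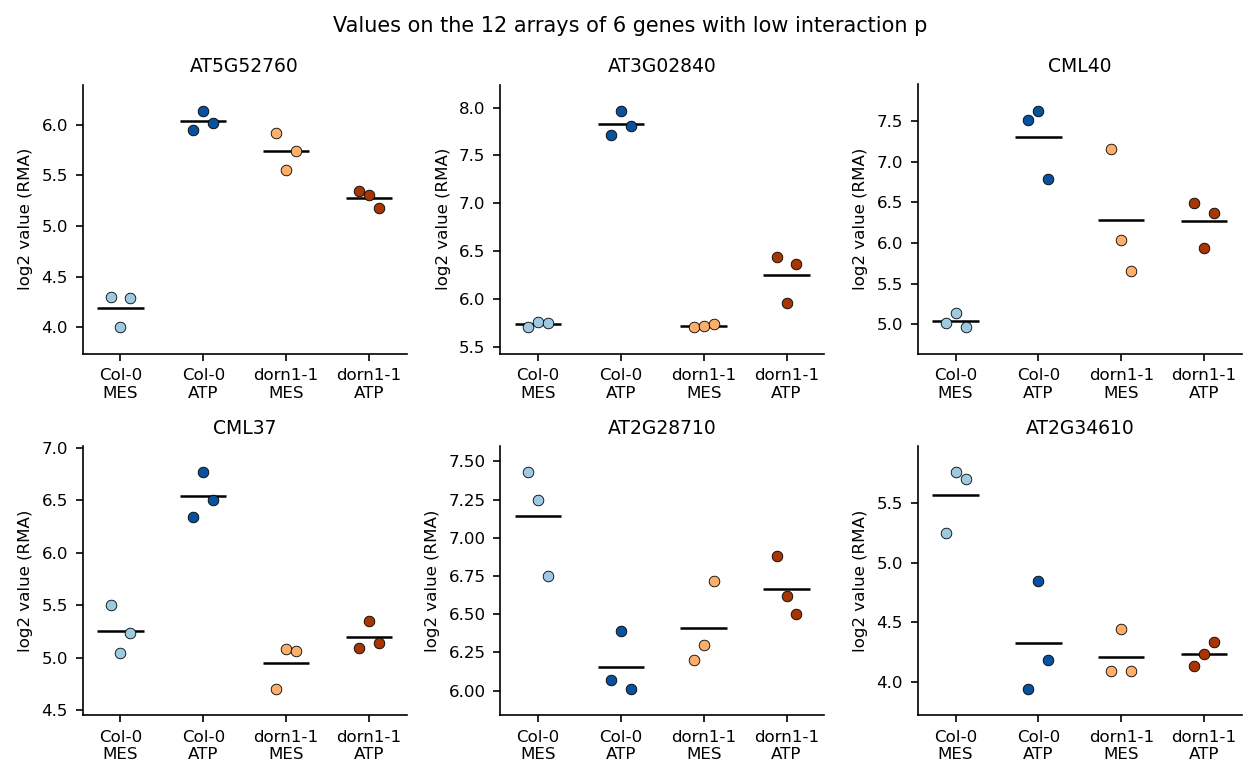
Log2 values (vertical axes, RMA) of 6 genes on the 12 arrays, with 3 points per group (horizontal axes: Col-0 MES, Col-0 ATP, dorn1-1 MES, dorn1-1 ATP) and a bar at each group mean. AT5G52760 starts from 5.74 in dorn1-1 MES against 4.19 in Col-0 MES, AT3G02840 starts from 5.72 and 5.74, and in AT2G34610 the Col-0 MES arrays stand above all others.

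The lower probe sets, as a group, were up with ATP in the wild type and flat in the mutant. Across the 610 probe sets the median change was 0.60 in Col-0 and -0.04 in dorn1-1, and the median gap between genotypes was 0.11 in MES and -0.55 in ATP. In 571 of them (93.6%) the Col-0 change was the larger in size, against 70% of all probe sets. In 485 (79.5%) the gap between genotypes was wider in ATP than in MES, against 58.7% of all. An interaction of at least 2-fold was measured for 102. These probe sets were picked by the interaction itself, which contains both changes, so these shares describe them and carry no test.

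The higher probe sets went the other way, with smaller changes. Across the 975 the median change was -0.43 in Col-0 and 0.08 in dorn1-1, with median gaps of -0.16 in MES and 0.35 in ATP. The Col-0 change was the larger in 844 (86.6%), against 70% of all probe sets, and 21 reached 2-fold. The ATP gap exceeded the MES gap in 625 (64.1%), nearer to the 58.7% of all than in the lower probe sets. Relative to Col-0 MES, the lower probe sets averaged 0.66 to 0.73 on the Col-0 ATP arrays, 0.02 to 0.26 on the dorn1-1 MES arrays and -0.05 to 0.16 on the dorn1-1 ATP arrays. The higher ones averaged -0.52 to -0.39, -0.29 to -0.03 and -0.11 to 0.04 on the same groups. The dorn1-1 MES array farthest from Col-0 MES in both sets was replicate 1, the array with the photosynthesis mean of 11.89, and the part of green tissue in these means was not tested.

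**Figure D2:**
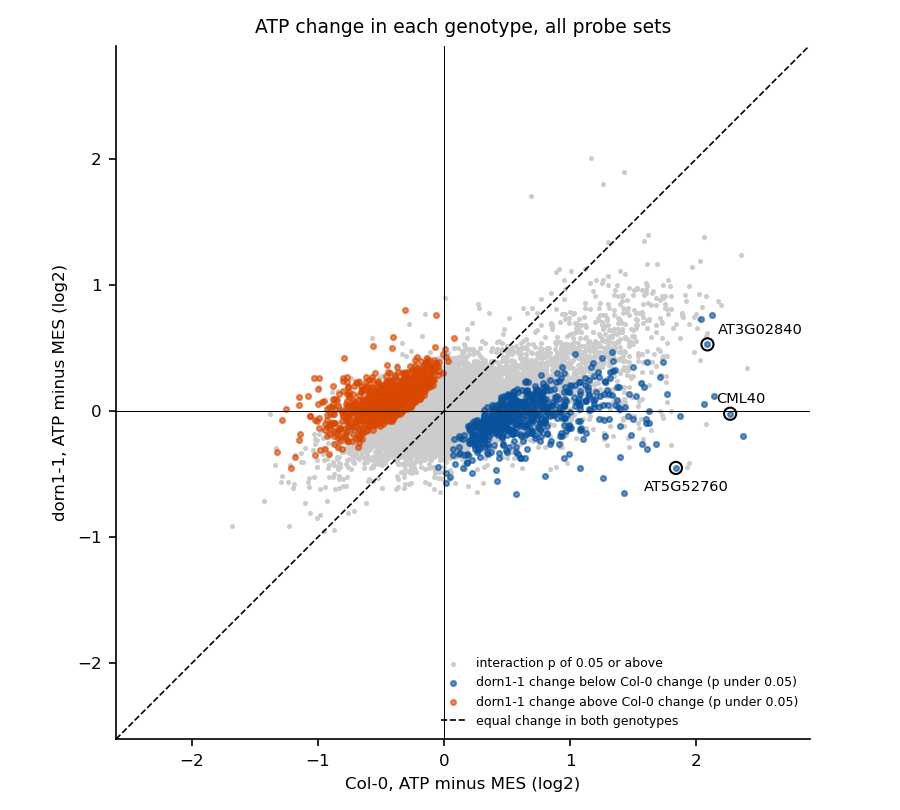
ATP minus MES in dorn1-1 (vertical axis, log2) against ATP minus MES in Col-0 (horizontal axis, log2) for 22746 probe sets, each point 1 probe set, with 610 lower and 975 higher ones in colour and a dashed line of equal change. The coloured points lie mostly along the horizontal axis, with medians of 0.60 and -0.43 in Col-0 against -0.04 and 0.08 in dorn1-1.

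**Figure D3:**
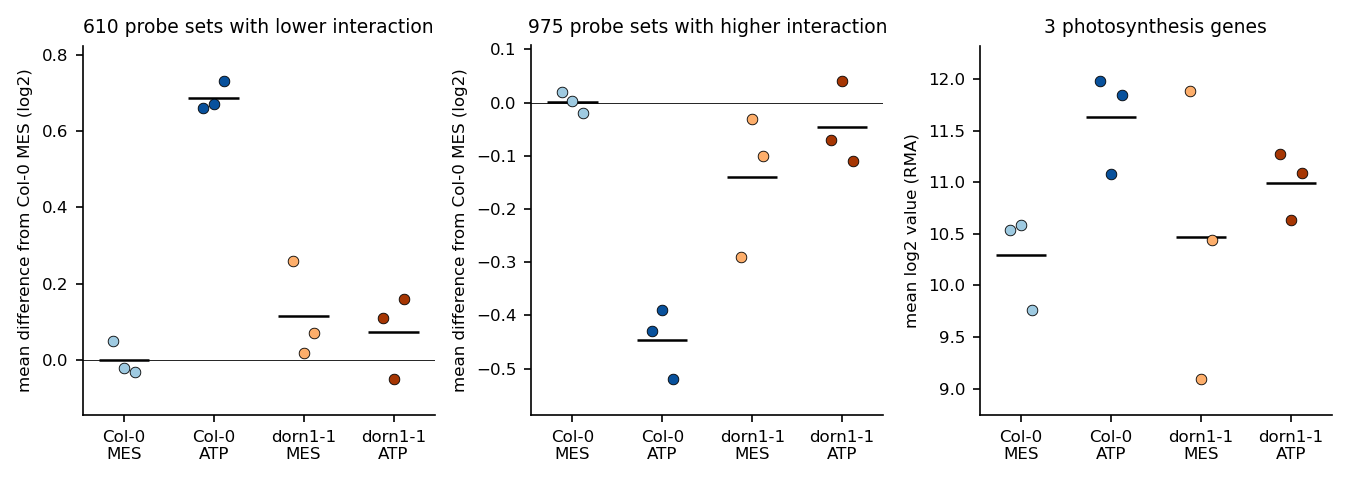
Mean over the 610 lower probe sets (left) and the 975 higher probe sets (middle) on each array, as the log2 difference from the Col-0 MES mean, and the mean log2 value of 3 photosynthesis genes (right), with bars at group means. The Col-0 ATP arrays stand apart at 0.66 to 0.73 and at -0.52 to -0.39, while dorn1-1 MES replicate 1 is the highest of its group in the left panel (0.26) and the right panel (11.89).

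Calcium-binding sensors were measured by 11 genes, of which 3 (CML40, CML45 and CML47) had been added to the list by locus with earlier results of these data known. Of the 11, 4 had a lower interaction at an unadjusted p of 0.05 and 0 a higher one, where 2.38% and 4.13% of all named genes did. The median interaction was -0.28, against 0.05 over all named genes, and was made of a median change of 0.35 in Col-0 and 0.13 in dorn1-1. The median was -0.04 with the photosynthesis mean as a covariate and -0.03 without dorn1-1 MES replicate 1, and 4 genes were lower in each of these fits. In a count chosen after seeing the data, without the 3 added genes, 2 of 8 were lower and 0 higher, with a median of -0.18, and the IQ-domain, glutathione transferase and xyloglucan classes also held 2 lower genes each. None of the 11 passed the adjusted test. The class counts that follow stand beside the same shares of all named genes, 2.38% lower and 4.13% higher, and were not tested.

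CML40, a calmodulin-like protein, had values of 5.01, 5.14 and 4.96 in Col-0 MES and rose to 7.51, 7.63 and 6.79 in Col-0 ATP (limma adjusted p = 0.0164). In dorn1-1 it stood at 7.16, 6.04 and 5.66 in MES and at 6.49, 5.94 and 6.37 in ATP. The 2 dorn1-1 groups overlapped, and the MES arrays of dorn1-1 all lay above those of Col-0. The interaction was -2.29 (SE 0.47, limma adjusted p = 0.398). The highest dorn1-1 MES value was that of replicate 1, and the value was -2.03 with the photosynthesis covariate.

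CML37, another calmodulin-like protein, had values of 5.50, 5.04 and 5.23 in Col-0 MES, 6.34, 6.77 and 6.50 in Col-0 ATP, 4.70, 5.08 and 5.06 in dorn1-1 MES and 5.09, 5.35 and 5.14 in dorn1-1 ATP. Only the Col-0 ATP arrays were high, and the MES groups overlapped. It rose 2.44-fold in Col-0 (limma adjusted p = 0.00785), and its interaction was -1.04 (SE 0.22, limma adjusted p = 0.51). With a covariate made of plastid transcripts the value was -1.22 (limma adjusted p = 0.0453), and with the photosynthesis covariate -1.17 (limma adjusted p = 0.136). CML37 passed in 1 of the 10 alternative fits on all 12 arrays, and in 0 of the 12 fits that left out 1 array.

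CML45 was the other sensor with an interaction beyond 2-fold. Its arrays read 7.06, 6.26 and 6.98 in Col-0 MES, 7.92, 8.33 and 7.97 in Col-0 ATP, 6.37, 5.77 and 5.53 in dorn1-1 MES and 6.26, 5.24 and 6.32 in dorn1-1 ATP. The interaction was -1.25 (SE 0.44, limma adjusted p = 0.705). CML23 had an interaction of -0.68 (SE 0.29), with dorn1-1 means of 5.86 in MES and 5.87 in ATP. The remaining sensors had p-values above the threshold, among them CML30 at -0.36, CML41 at -0.28, CML47 at -0.22, CML42 at -0.08, CML38 at 0.06 and CML43 at 0.31.

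Genes that act beside the sensors were split. The IQ-domain proteins, which bind calmodulin, had a median interaction of 0.24 over 15 genes, with 2 lower and 1 higher. IQD24 (-1.12, SE 0.49) and IQD23 (-0.54, SE 0.24) were lower, and iqd32 was higher (0.52, SE 0.16, Col-0 change -0.56). The Col-0 MES and dorn1-1 MES arrays of IQD24 overlapped (3.86 to 4.06 and 3.42 to 4.74), and its interaction was -0.69 with the photosynthesis covariate. Of 8 measured calcium channels and pumps, 1 was lower, the glutamate receptor-like channel GLR3.5 (-0.46, SE 0.20), whose groups all overlapped, and the class median was -0.04. Without dorn1-1 MES replicate 1, 0 of the 15 IQ-domain genes were lower and 1 was higher, and IQD23 was at -0.33. CRT1b, a calreticulin that stores calcium in the endoplasmic reticulum, had an interaction of 0.78 (SE 0.27): its Col-0 arrays ran from 9.92 to 10.19 in MES and from 9.06 to 9.24 in ATP, and its dorn1-1 arrays from 9.94 to 10.70 over both treatments.

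All of the 15 named genes with the lowest p on the lower side rose in Col-0, at a limma adjusted p under 0.05. Over all probe sets 0.479% did. In dorn1-1, 0 of the 15 passed, and 0 of all probe sets did. The 15 were picked by the interaction, which contains both changes, so these counts describe them and carry no test. AT5G19240 had an interaction of -1.83 (SE 0.32, limma adjusted p = 0.229) and arrays of 7.37 to 8.15 in Col-0 MES, 9.20 to 9.75 in Col-0 ATP and 7.91 to 8.67 over both dorn1-1 groups. AT5G05300, which encodes a small peptide, ran from 4.17 to 4.48 in Col-0 MES and from 5.88 to 6.14 in Col-0 ATP, while dorn1-1 lay at 4.39 to 4.87 in MES and 3.95 to 5.01 in ATP (interaction -1.72, SE 0.33). AT5G18470, a curculin-like gene, had an interaction of -1.69 (SE 0.30) and AT3G10930, another small peptide gene, of -1.34 (SE 0.24). Their Col-0 changes had limma adjusted p-values of 0.0164, 0.016, 0.0115 and 0.00372 in the order named.

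AT5G52760, AT3G02840, CML40 and CML37, also among these 15, are described above, and the rest follow. AT3G54150 was at -1.50, AT2G27500 at -1.10, AT1G74450 at -1.01, AT3G15200 at -0.87, AT3G47570 at -0.80, AT4G34150 at -0.76 and AT2G21120 at -0.75. In each of these the dorn1-1 groups overlapped, the Col-0 groups did not, and the dorn1-1 change lay between -0.17 and 0.14. Every one of the 15 kept a value below 0 in all alternative fits in which it was tested. Their limma adjusted p-values, apart from the 2 called genes, lay between 0.206 and 0.543.

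The following genes on the lower side have a symbol and an unadjusted p under 0.05, and 0 of them passed the adjusted test. They were picked after their values were seen, apart from STZ. RING1, a RING-type ubiquitin ligase, read 5.49, 5.17 and 5.61 in Col-0 MES, 7.12, 6.68 and 6.96 in Col-0 ATP, 5.95, 4.44 and 5.28 in dorn1-1 MES and 5.56, 4.66 and 5.26 in dorn1-1 ATP, an interaction of -1.56 (SE 0.46). Only the Col-0 ATP arrays were high. STZ, a zinc finger repressor of stress responses, had an interaction of -0.95 (SE 0.27), with Col-0 ATP arrays of 9.53 to 9.99 above all other arrays (8.50 to 9.19). The tetraspanins TET9 (-0.90, SE 0.25) and TET8 (-0.74, SE 0.31), which organise membrane domains, had Col-0 ATP arrays above all their others, at 5.76 to 6.24 and 11.45 to 11.67. So did the kinase PTI1-4, at 8.30 to 8.53 (-0.46, SE 0.15). TET9 and PTI1-4 rose in Col-0 (limma adjusted p = 0.022 and 0.0406). Without dorn1-1 MES replicate 1 the interaction was -1.19 for RING1, -0.98 for STZ, -0.99 for TET9 and -0.41 for PTI1-4. For TET8 it was then -0.46, with an unadjusted p of 0.0721 by limma.

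Pattern-triggered immunity components had 1 of 6 genes lower and 0 higher, with a median of -0.22. The median was -0.09 without dorn1-1 MES replicate 1, with 1 lower, and -0.09 with either green tissue covariate, with 2 lower. PUB22, a U-box ubiquitin ligase that dampens immune signalling, was the lower one (-0.37, SE 0.15): its Col-0 ATP arrays were at 9.13, 9.13 and 9.00 and all its other arrays between 8.49 and 8.81. PUB23 (-0.35), the kinase BIK1 (-0.26) and the receptor EFR (-0.18) had values below 0 with p-values above the threshold, and PUB24 was at 0.08. PUB22 was also the 1 lower gene among 16 measured ubiquitin ligases, whose median was -0.02. RING1 stands outside that class because its symbol and synonyms did not match the list.

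Salicylate and pathogenesis genes, mostly plant defensins, had 0 of 12 lower and 2 higher, where 2.38% and 4.13% of all named genes were. PDF2.5, a defensin, read 8.95, 8.92 and 8.70 in Col-0 MES, 8.10, 8.02 and 7.93 in Col-0 ATP, 8.79, 9.60 and 8.92 in dorn1-1 MES and 8.96, 8.93 and 8.96 in dorn1-1 ATP (interaction 0.68, SE 0.25). The Col-0 ATP arrays were the lowest. LCR68, another defensin, had an interaction of 0.34 (SE 0.14). Without dorn1-1 MES replicate 1 the class held 1 higher gene. The 6 jasmonate genes had 0 on either side, as did the 17 secreted signalling peptides that the list matched. The small peptide genes AT5G05300 (-1.72) and AT3G10930 (-1.34) carry only a locus tag and stand outside those 17. The 13 abscisic acid and osmotic stress genes had a median of 0.25 with 0 past the unadjusted threshold. Of 12 auxin response genes 1 was higher, GH3.17, which conjugates auxin to an amino acid (0.62, SE 0.25).

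Transcription factors lay on both sides. Of 7 WRKY genes 0 were lower and 2 higher, WRKY47 (0.58, SE 0.21) and WRKY42 (0.44, SE 0.16). Among all named genes 2.38% were lower and 4.13% higher. In WRKY47 the Col-0 MES arrays stood apart at 6.81 to 6.99 and all other arrays lay between 6.16 and 6.65. WRKY42 had a dorn1-1 change of 0.38 and a Col-0 change of -0.06. WRKY53 (-0.61) and WRKY22 (-0.41), which act in defence, had p-values above the threshold. NAC014 had an interaction of 0.36 (SE 0.15).

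Glutathione transferases, which conjugate glutathione to reactive or foreign molecules, went both ways within the tau group. Of 14 genes 2 were lower and 3 higher, against 2.38% and 4.13% of all named genes, and the median was 0.20. GSTU25 had the highest interaction of the class (1.21, SE 0.39), with arrays of 10.00, 9.74 and 8.93 in Col-0 MES, 9.13, 8.52 and 8.64 in Col-0 ATP, 9.43, 9.91 and 9.45 in dorn1-1 MES and 10.25, 10.20 and 9.60 in dorn1-1 ATP. The genotypes overlapped in MES and did not in ATP. GSTU22 (0.94, SE 0.28) and GSTU26 (0.84, SE 0.33) were the other higher members. GSTU18 (-1.23, SE 0.52) and GSTU20 (-0.75, SE 0.27) were the lower ones, and dorn1-1 MES replicate 1 was the highest dorn1-1 array in both, at 7.30 and 8.66. Without that array GSTU18 was at -0.73, 1 gene was lower and 2 were higher, and the median was 0.02. Of 7 class III peroxidases 0 were on either side, with values from -0.24 to 1.15 and a median of 0.25. The median was 0.15 without dorn1-1 MES replicate 1, 0.11 and 0.08 with the photosynthesis and plastid covariates and 0.05 with array weights. PRX52 was higher in the first 3 of these fits, at 1.41 with the photosynthesis covariate. The peroxidase gene AT4G30170 was not matched by the list and stands outside those 7. Its interaction was 0.76 (SE 0.20), with an unadjusted p of 0.00247 by limma.

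Wall enzymes had 2 lower and 0 higher of 29 xyloglucan transferases and expansins, against 2.38% and 4.13% of all named genes. XTH18, which cuts and rejoins xyloglucan, read 9.64, 9.58 and 9.19 in Col-0 MES, 10.23, 10.28 and 10.35 in Col-0 ATP, 10.02, 9.69 and 9.50 in dorn1-1 MES and 9.88, 9.25 and 9.60 in dorn1-1 ATP. Its Col-0 ATP arrays lay above all others, and its interaction was -0.98 (SE 0.26, limma adjusted p = 0.641). XTH16 (-1.13, SE 0.43) was the other lower member, and its dorn1-1 MES arrays (7.19 to 8.42) lay above those of Col-0 MES (6.04 to 6.55). The class median of -0.04 changed sign in 7 fits that left out 1 array. The 5 pectin enzymes had 0 on either side.

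UDP-glycosyltransferases, which attach sugars to small molecules, had 0 lower and 3 higher of 51 genes, with a median of 0.06. Those counts are near the shares of all named genes, 2.38% lower and 4.13% higher. UGT72E2, which glucosylates monolignols, read 8.69, 8.71 and 8.67 in Col-0 MES, 7.69, 8.03 and 7.74 in Col-0 ATP, 7.41, 7.97 and 8.24 in dorn1-1 MES and 7.82, 7.99 and 7.55 in dorn1-1 ATP. The Col-0 MES arrays stood alone, and the other 3 groups overlapped (interaction 0.78, SE 0.27). In UGT76B1, which glucosylates salicylate and isoleucic acid, the Col-0 MES arrays also lay above all others (0.61, SE 0.24), and UGT78D3 was at 0.34 (SE 0.15). Without dorn1-1 MES replicate 1, 1 of the 51 was higher. Of 23 cytochrome P450 genes 1 was lower, CYP71B34 (-0.64, SE 0.19), and the median was -0.04.

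**Figure D4:**
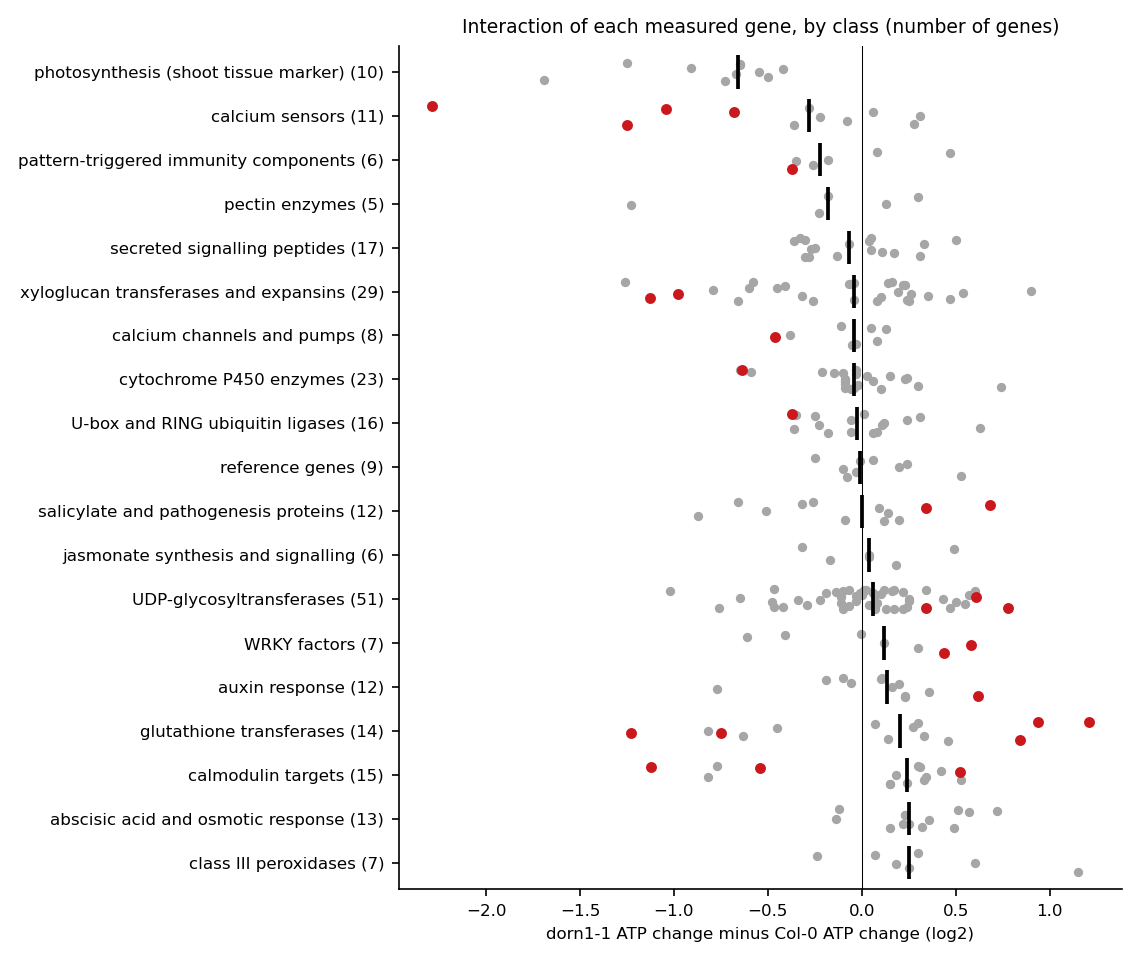
Interaction of each measured gene (horizontal axis, log2, dorn1-1 ATP change minus Col-0 ATP change) in 19 classes (vertical axis, number of genes in parentheses; plastid-encoded transcripts are not drawn), with red points for an unadjusted p under 0.05 and a black bar at the class median. The calcium sensors hold 4 red points, all below 0, the glutathione transferases hold red points on both sides, and the photosynthesis genes have the lowest median, -0.66, and no red point.

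The 9 reference genes (tubulins, GAPC2 and PEX4) had a median of -0.01 and 0 on either side. The 10 photosynthesis genes had a median interaction of -0.66, all 10 below 0 and 0 past the unadjusted threshold, with median changes of 1.31 in Col-0 and 0.57 in dorn1-1. The 69 plastid-encoded transcripts had a median of -0.49, 65 below 0 and 2 lower, psaA of photosystem I (-0.70, SE 0.27) and rpoC1 of the plastid RNA polymerase (-0.78, SE 0.32). Without dorn1-1 MES replicate 1 the medians of these 2 classes were 0.09 and -0.08, and 0 of the 69 were lower. The value of rpoC1 was then -0.52. Among the response classes the median without that array was 0.13 for the IQ-domain genes, 0.02 for the WRKY genes and -0.01 for the auxin genes, against 0.24, 0.12 and 0.14 with it. The part of green tissue in the interactions of other classes was not tested beyond the covariate fits.

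On the higher side, 7 of the 15 named genes with the lowest p fell in Col-0 at a limma adjusted p under 0.05. Over all probe sets 0.185% did. In dorn1-1, 0 of the 15 passed, and 0 of all probe sets did. These genes too were picked by the interaction, so the counts carry no test. AT2G28710, a C2H2 zinc finger gene, read 7.43, 7.25 and 6.75 in Col-0 MES, 6.07, 6.39 and 6.01 in Col-0 ATP, 6.20, 6.30 and 6.72 in dorn1-1 MES and 6.88, 6.62 and 6.50 in dorn1-1 ATP. It fell in Col-0 (-0.99, limma adjusted p = 0.0488), its MES groups did not overlap, and its interaction was 1.25 (SE 0.28, limma adjusted p = 0.543). AT2G34610 had the largest interaction of the 15, at 1.27 (SE 0.30): Col-0 MES stood at 5.25, 5.76 and 5.70, and the 9 other arrays lay between 3.94 and 4.85. It fell in Col-0 by 1.25 (limma adjusted p = 0.0292), and the dorn1-1 change was 0.02.

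AT5G26260 fell in Col-0 by 0.81, from 10.11 to 10.31 in MES to 9.20 to 9.56 in ATP, and stood at 9.51 to 9.83 over both dorn1-1 groups (interaction 0.82, SE 0.18). AT5G58784 fell by 0.77 in Col-0 (limma adjusted p = 0.0235), and its dorn1-1 arrays stayed at 5.46 to 5.92 over both treatments (interaction 0.74, SE 0.17). AT1G26520 had the lowest p on this side (interaction 0.59, SE 0.12, limma adjusted p = 0.467) and differed in kind: it read 5.65, 5.60 and 5.56 in Col-0 MES against 5.32, 5.27 and 5.30 in Col-0 ATP, and 5.48, 5.58 and 5.53 in dorn1-1 MES against 5.73, 5.88 and 5.81 in dorn1-1 ATP. The treatments did not overlap in either genotype, and their order was opposite, with a Col-0 difference of -0.31 and a dorn1-1 difference of 0.28, neither past the adjusted test. AT2G07490 (0.62) and AT2G02630 (0.65) also had both genotypes' treatment groups apart and in opposite order. Unlike AT1G26520, their MES groups did not overlap. In AT2G02630 the gap in MES was -0.95 (limma adjusted p = 0.00943), and the arrays of AT2G07490 were low, at 2.78 to 3.35.

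NAI1, a transcription factor needed for the endoplasmic reticulum bodies of seedlings and roots, was among the 15, at 7.62, 7.98 and 7.82 in Col-0 MES, 7.42, 7.31 and 7.39 in Col-0 ATP, 7.50, 7.52 and 7.55 in dorn1-1 MES and 7.72, 7.68 and 7.72 in dorn1-1 ATP (interaction 0.61, SE 0.15). Here too the treatment groups were apart in both genotypes and in opposite order. NAI2, a protein of those bodies, had an interaction of 0.55 (SE 0.20) with a Col-0 change of -0.53 and a dorn1-1 change of 0.01. The carboxypeptidase-like gene scpl48 fell by 0.68 in Col-0 (limma adjusted p = 0.0371) and had an interaction of 0.70 (SE 0.17). The others of the 15 were AT5G61310 and AT5G08180 (0.82 and 0.89), AT3G52040 (0.75), AT1G19690 (0.63), AT5G44710 (0.60) and AT3G07230 (0.49).

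Some further genes with a symbol, outside any class list, were picked after their values were seen and stand for no theme. On the higher side, short of the adjusted threshold, they were the H2B histones HTB1 (0.66, SE 0.24) and HTB11 (0.43, SE 0.18), the DNA topoisomerase TOPII (0.64, SE 0.27), and the polymerase subunits NRPA1 (0.51, SE 0.23) and NRPB12 (0.49, SE 0.17). TOPII read 7.47 to 7.78 in Col-0 MES, 6.82 to 6.96 in Col-0 ATP and 7.34 to 8.02 over both dorn1-1 groups. Without dorn1-1 MES replicate 1 the interaction of TOPII was 0.42. The transcription factor AGL24 was on the lower side (-0.42, SE 0.19) and the receptor kinase PSY1R on the higher (0.54, SE 0.19).

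The probe sets that passed in the Col-0 response were then followed in the interaction. There were 109 that rose (0.479% of those tested) and 42 that fell (0.185%), while 0 passed in the dorn1-1 response, where 523 had an unadjusted p under 0.05 by limma. Since both contrasts use the Col-0 arrays, the following counts describe and do not test. Of the 109 risers, 106 had a lower interaction at an unadjusted p of 0.05, with a median of -0.87. The median dorn1-1 change was 10.9% of the Col-0 change (quartiles 1.37% and 23.9%). In 59 the 95% interval of the dorn1-1 change lay wholly below 50% of the Col-0 change, and in 5 it lay above 0. The Col-0 change entered as its estimate, without its own error. Because risers and fallers were picked by that change, it may be overstated and the shares understated.

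Of the 42 fallers, 37 had a higher interaction, with a median of 0.57, the median dorn1-1 change was 19.4% of the Col-0 change (quartiles 1.87% and 34%), and 10 had an interval on the same side of 0 as the Col-0 change. The genotypes differed in ATP for 87 of the 109 and 17 of the 42, and in MES for 1 of each, by limma at an adjusted p of 0.05. Over all probe sets 1519 (6.68%) passed between genotypes in ATP and 15 (0.0659%) in MES. These tests have equal standard errors (median 0.15), because the model pools 1 spread per probe set over the 4 groups. That of the interaction is larger (0.21). A wider spread within dorn1-1 MES, the group with the lowest correlation between replicates (0.9684), does not show in these errors.

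**Figure D5:**
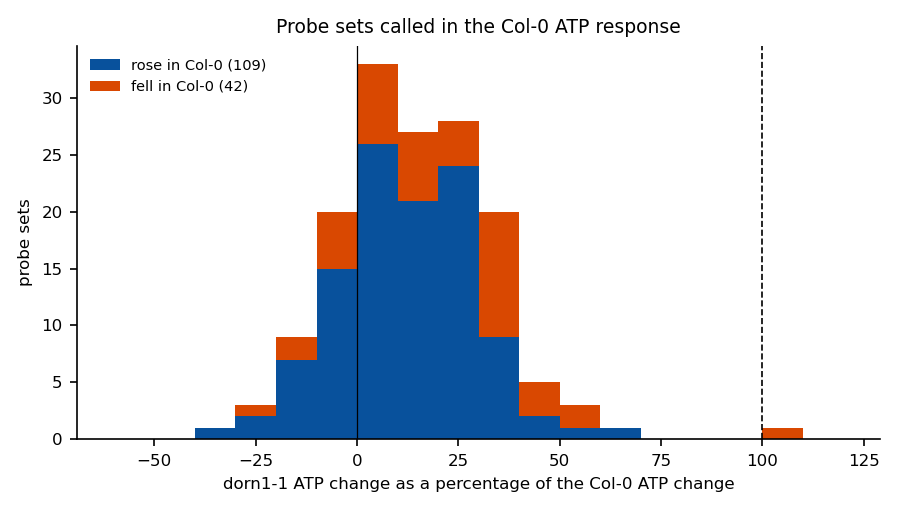
Number of probe sets (vertical axis) by the dorn1-1 ATP change as a percentage of the Col-0 ATP change (horizontal axis), for the 109 probe sets that rose and the 42 that fell in Col-0, with a dashed line at an equal change. The shares run from -38.1% to 105%, with medians of 10.9% and 19.4%, and the bar at the dashed line is AT5G60030.

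The 8 named genes with the smallest interaction for their Col-0 change are, by that rule, those that kept the largest shares among named genes. Some probe sets without a gene in the annotation kept more than the lower of them, up to 58%. AT5G60030 read 5.13, 5.25 and 5.38 in Col-0 MES, 4.57, 4.45 and 4.46 in Col-0 ATP, 5.23, 5.32 and 5.23 in dorn1-1 MES and 4.40, 4.74 and 4.23 in dorn1-1 ATP. Both genotypes were lower with ATP, without overlap, by -0.76 and -0.81, and the interaction was -0.04 (SE 0.18). AT5G24600 was higher with ATP in both, by 0.76 in Col-0 and 0.48 in dorn1-1 (interaction -0.28, SE 0.17), and AT1G19210 by 1.04 and 0.45 (-0.59, SE 0.23). AT3G48710 was lower in both, by -0.66 and -0.35 (0.31, SE 0.17). AT4G30170, a peroxidase gene that the class list did not match, was lower by -1.21 and -0.45, 37% of the Col-0 change, and its interaction of 0.76 (SE 0.20) had an unadjusted p of 0.00247 by limma. The other 3 of these 8 genes were AT1G79510, AT4G33985 and AT4G38225, with dorn1-1 changes of 0.24 to 0.32 and dorn1-1 groups that overlapped.

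Further genes passed only under other settings of the same fit. The probe set 263783_at, which has no gene in the annotation, had an interaction of -2.01 (SE 0.27, limma adjusted p = 0.0581), with 7.45, 6.84 and 7.18 in Col-0 MES, 9.05, 9.56 and 9.05 in Col-0 ATP, 6.54, 6.99 and 7.03 in dorn1-1 MES and 6.96, 6.93 and 6.85 in dorn1-1 ATP. It passed in 7 of the 10 alternative fits on all 12 arrays, with limma adjusted p-values from 0.00273 to 0.0493. The unlisted 259418_at (-0.88, SE 0.15) passed with array weights and with the plastid covariate, AT1G74450 and AT3G15200 with array weights, and AT1G02810 (-0.90, SE 0.26) with either covariate. In all of these the dorn1-1 change lay between -0.06 and 0.14.

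The named genes whose values over the 12 arrays were most like those of AT5G52760 were AT1G23710 and AT5G58480 (Pearson r = 0.88), CML40 (0.87), AT1G60970 (0.86), AT1G06240 and AT4G39320 (0.85), AT1G03510 (0.83) and AT3G01015 (0.82). Each r is over arrays that share the 4 groups and is given as a description. In all 8 the dorn1-1 MES arrays lay above the Col-0 MES arrays without overlap, as in AT5G52760, and their interactions ran from -2.29 to -0.39.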

How the data were processed

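Root RNA was measured on one-colour arrays. The deposited values are log2 expression, which the submitters' processing notes credit to RMA and affy, with no version stated. RMA equalises distributions between arrays and compresses differences near background. With 3 arrays a group, precision is limited by their number.

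A model with a mean for each of the 4 groups was fitted by limma (version 3.58.1, R 4.3.3), and p-values were adjusted by Benjamini-Hochberg over 22746 probe sets. Tables and figures used Python 3.11.15, pandas 2.3.3 and matplotlib 3.10.9. The fit was tested on simulated data. Of 13513 probe sets with exactly 1 gene in the platform annotation, 13436 matched RefSeq (TAIR10.1), 503 list several genes and 8730 are not listed. A gene was given by its probe set of highest mean.

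Lists were matched to symbols and synonyms, cleared of unrelated genes that share their letters, and CML40, CML45 and CML47 were added by locus. Of 44 lists, 20 had at least 5 measured genes. The lists of heavy-metal-domain and ARM-repeat proteins, the families of the 2 called genes, matched 0 measured genes. So did, among others, those of TIR-type resistance genes, MYB factors, GDSL lipases and lipid transfer proteins. Those classes were not assessed. The members and lists were chosen with earlier results of these data known. Named genes were those past an adjusted p of 0.05 in the main or an alternative fit, the 15 lowest p-values in each direction, up to 4 members per list with p under 0.05, the 8 Col-0 responses with the smallest relative interaction, and the 8 genes most like AT5G52760. Other symbols were picked after their values were seen. The alternatives were other scalings, a filter at the 40th percentile, robust moderation, array weights, the replicate number, covariates for green tissue, omission of ambiguous probe sets and of each array, and, chosen after seeing the data, the photosynthesis covariate without dorn1-1 MES replicate 1. The mutated receptor gene and promoter sequences were not analysed here.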

Additional observations from a re-analysis of the deposited data

Results flagged for a closer look

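AT5G52760 differed between the genotypes in its ATP response by -2.30 (log2), by the test of the difference itself. The Col-0 change of 1.84 and the dorn1-1 change of -0.45 had opposite signs, and the gap between genotypes was larger in MES (1.54) than in ATP (-0.75).

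AT3G02840 differed by -1.56 by the same test, with changes of 2.09 in Col-0 and 0.53 in dorn1-1 and buffer levels of 5.74 and 5.72.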

How the results depend on the processing

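The interaction gave 2 calls. The count was 1 with the filter on dim probe sets, 6 with array weights, 4 with the photosynthesis covariate and 6 with the plastid covariate, and it ranged from 1 to 3 when each array was left out in turn. AT5G52760 was not tested in the fit with the filter, and passed in all others. Whether the replicate numbers pair the arrays is not settled here. Same-numbered arrays of different groups had correlations of their deviations from -0.28 to 0.56, and arrays of unlike number from -0.58 to 0.44. Between MES and ATP, replicates 1, 2 and 3 had 0.48, 0.56 and 0.04 in dorn1-1 and -0.03, -0.28 and -0.08 in Col-0. With the replicate number as a block 1 probe set passed, AT3G02840 having a limma adjusted p = 0.104. Of 1683 values of 74 named features over the alternatives, 1657 kept their direction and their side of the threshold, 10 lost the call (all AT3G02840), 16 gained one and 0 reversed. Class medians moved by more than the median standard error of their genes in 3 cases, all photosynthesis genes (to between 0.17 and 0.20 under a covariate). The lists hold few genes because most carry only a locus tag. The table holds no detection calls, so whether low values such as those of AT5G52760 in Col-0 MES exceed background was not tested.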
